A study of Homo sapiens with 6 samples.

Results

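The Kruppel-like factors are DNA-binding proteins that carry 3 C2H2 zinc fingers at their C-terminal end and bind GC-rich and CACCC motifs, the same class of site that the related SP factors bind. Members of the family differ in the part outside the fingers. KLF2, KLF4, KLF5, KLF6 and KLF7 act mainly as activators, KLF3 represses transcription through the corepressor CtBP, and KLF9, KLF10, KLF11 and KLF13 can recruit the corepressor SIN3A. Several of these genes respond quickly to hormones, growth factors and serum, and the family is known for its part in cell proliferation, differentiation and quiescence.

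The 10 genes described here are the rows of the deposited table named KLF2, KLF3, KLF4, KLF5, KLF6, KLF7, KLF9, KLF10, KLF11 and KLF13, out of 26025 genes in the table. All 10 passed the filter on low values. RNA was sequenced from NCI-H1299, a human line established from non-small cell lung cancer, in 3 Ctrl libraries and 3 libraries of cells treated with 10 µM norepinephrine (NE) for 48 h. Both groups were first starved, for 8 to 12 h by the sample records, and were then kept in medium with 2% FBS. The titles of the Ctrl samples name DMSO as the vehicle, whereas the treatment record names PBS. No record says whether the 3 libraries of a group came from separate cultures, so the p-values measure the spread between these libraries.

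The table holds normalised counts, that is, reads per gene divided by a size factor of the library, and the reads behind them ranged from 16852751 to 17979206 per library. Ctrl replicate 3 stood apart from the other Ctrl libraries, with 7305 genes at 0 against 4829 and 4833. Across 14955 tested genes the difference of Ctrl replicate 3 from the other Ctrl libraries ran with exon GC content at a Spearman rho of -0.511, and the difference between NE and Ctrl ran with it at -0.644. The log2 fold changes of the members, and the ratios between them, are therefore given also after the GC trend of every library had been taken out, a correction that can take away changes made by NE as well. Of the markers of the line, VIM, KRT8 and KRT18 were high in every library, and EPCAM and CDH1 stayed at or below 7.84 normalised counts in sum. The lung lineage markers NKX2-1, SFTPB and NAPSA were at or below 10.7 in sum. The leukocyte genes CD68 and CD14 stayed at or below 4.15 normalised counts in sum in every library. Summed over their markers, endothelial genes stayed at or below 52.9 and fibroblast genes at or below 41.5 in every library.

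RefSeq promoter windows, from 250 bases before to 50 bases after a transcription start on GRCh38.p14, were matched for 8 of the 10 genes, in 13 windows. These windows were searched on both strands for the cAMP response element TGACGTCA, its half-site TGACG and the E-box CACGTG. These were chosen because NE acts through cAMP and CREB in many cells and because CLOCK and BMAL1 bind E-boxes. The GC box GGGCGG and the CACCC box CACCC were searched as well. The 250 bases before the start are shown for KLF2 and KLF6, which had the strongest falls, and for the second start of KLF11, whose window alone held the full cAMP response element. Capitals mark the half-site of the cAMP response element, the E-box and the GC box on either strand.
KLF2, chr19:16324576-16324825, plus strand: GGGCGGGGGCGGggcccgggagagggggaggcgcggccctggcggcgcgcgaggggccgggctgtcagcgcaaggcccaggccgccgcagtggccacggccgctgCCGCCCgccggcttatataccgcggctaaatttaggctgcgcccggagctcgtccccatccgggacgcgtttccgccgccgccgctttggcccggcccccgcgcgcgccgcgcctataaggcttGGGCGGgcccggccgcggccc
KLF6, chr10:3785210-3785459, minus strand: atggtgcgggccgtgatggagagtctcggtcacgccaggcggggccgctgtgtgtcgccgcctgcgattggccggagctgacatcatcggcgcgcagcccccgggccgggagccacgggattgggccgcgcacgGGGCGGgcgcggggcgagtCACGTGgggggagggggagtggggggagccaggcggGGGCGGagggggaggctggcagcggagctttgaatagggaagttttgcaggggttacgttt
KLF11, chr2:10043971-10044220, plus strand: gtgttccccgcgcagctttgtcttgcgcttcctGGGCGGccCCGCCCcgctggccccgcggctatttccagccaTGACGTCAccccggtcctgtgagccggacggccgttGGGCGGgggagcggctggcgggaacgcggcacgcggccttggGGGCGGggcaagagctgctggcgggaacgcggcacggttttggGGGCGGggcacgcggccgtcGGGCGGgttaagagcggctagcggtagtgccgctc

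The full cAMP response element of KLF11 began 176 bases before the start, and 1.85% of all 35116 RefSeq windows of this length held one. Its half-site, which the full element contains, was matched in windows of 4 of the 8 genes, KLF4, KLF5, KLF11 and KLF13, and in 24.6% of all windows. An E-box was matched in windows of KLF4, KLF6, KLF7 and KLF11, against 7.26% of all windows, and that of KLF6 began 97 bases before the start. The GC box was matched in 7 of the 8 genes and in 45% of all windows, and the CACCC box in 4 of the 8 genes and in 59.9% of all windows. Neither the half-site nor the E-box lay in the KLF2 window, and the KLF9 window held none of the motifs searched. A match describes letters only, and genes with several windows had more sequence to match.

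In NE-treated cells 4 KLF genes rose and 4 fell by limma at an adjusted p under 0.05. KLF3, KLF5, KLF9 and KLF11 were higher, by between 0.54 and 0.62 on the log2 scale. KLF2, KLF6, KLF7 and KLF13 were lower, by between -1.37 and -0.28, and KLF4 and KLF10 did not pass the threshold. KLF2 was the 1 member that also passed the fold criterion of the study's methods, a change of 1 or more on the log2 scale in either direction. Of the 15013 genes tested, 24.6% were higher and 25.5% lower by the adjusted p alone. With the fold criterion 7.47% were higher and 6.55% lower. The median absolute log2 fold change was 0.54 over the 10 members and 0.55 over all genes tested. By overlap of the libraries, 4 members had every NE library above every Ctrl library and 5 had every one below, beside 29.7% and 28.9% of all genes tested. No member rose by 1 on the log2 scale in any of the 19 alternative fits. After the GC correction 3 members were higher and 3 lower, beside 13.0% and 19.0% of 14955 genes. Without Ctrl replicate 3 they were 4 and 5, beside 31.9% and 32.5% of all genes.

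**Figure D1:**
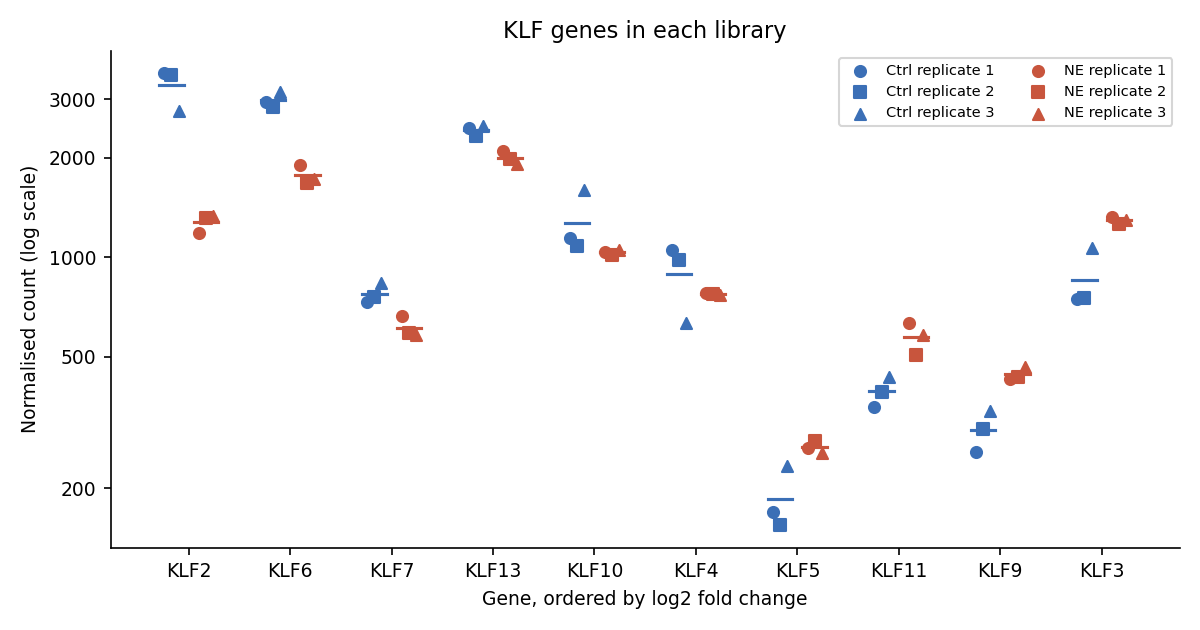
Normalised count (log axis) of each KLF gene in the 3 Ctrl libraries (blue) and the 3 NE libraries (red), with marker shapes for replicates 1 to 3 and lines at the group means. The NE libraries lie below every Ctrl library for KLF2, KLF6, KLF7, KLF13 and KLF10 and above them for KLF5, KLF11, KLF9 and KLF3, and only KLF4 overlaps.

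KLF2 (ENSG00000127528), the lung Kruppel-like factor, keeps T cells and endothelium quiescent. Its gene spans 16324826 to 16328685 on the plus strand of chromosome 19 (hg38, as for all positions here), and its canonical transcript in GENCODE v44 has 3 exons. The normalised count of KLF2 was 3595, 3559 and 2759.5 in Ctrl and 1181, 1308 and 1333 in NE-treated cells. Every NE library lay far below every Ctrl library, and Ctrl replicate 3 was the lowest of its group. The means were 3305 ± 472 (SD, n = 3) and 1274 ± 81.8 (SD, n = 3), and the log2 fold change was -1.37 (standard error 0.128) at an adjusted p of 0.00011 by limma, adjusted after Benjamini and Hochberg. KLF2 is rich in GC, with 61.2% in its exons, and after the GC correction limma gave -0.77 (adjusted p = 0.000139), which no longer met the fold criterion. Over the 19 alternatives it ran from -1.49 to -0.70 and the adjusted p from 5.37e-19 to 0.0028.

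KLF6 (ENSG00000067082) is expressed in most tissues and is known as a tumour suppressor and as a factor induced by injury. The gene lies on chromosome 10 from 3775996 to 3785281 on the minus strand, with 4 exons in the canonical transcript. KLF6 had 2938, 2849.6 and 3167 normalised counts in Ctrl and 1899, 1677 and 1721 in NE-treated cells. The groups were well apart, and here Ctrl replicate 3 was the highest of its group. The mean fell from 2985 ± 164 to 1766 ± 118 (SD, n = 3 each), a log2 fold change of -0.76 (SE 0.101, limma adjusted p = 0.000468). With 47.4% GC in its exons, close to the median of 47.5% over tested genes, KLF6 changed little under the GC correction, to -0.81. It passed the adjusted p in each of the 19 alternatives, between -0.86 and -0.62, with adjusted p from 1.9e-08 to 0.00543.

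KLF7 (ENSG00000118263), known for its part in axon growth, and KLF13 (ENSG00000169926), which activates the chemokine gene CCL5 in T cells, had smaller falls. KLF7 had 729.9, 755 and 834 normalised counts in Ctrl and 663, 591 and 579 in NE-treated cells, and its log2 fold change was -0.34 (SE 0.117, limma adjusted p = 0.0371). KLF13 had 2454, 2324 and 2490.02 in Ctrl and 2089, 1978 and 1907 in NE-treated cells, with a log2 fold change of -0.28 (SE 0.0959, limma adjusted p = 0.0341). In both genes every NE library lay below every Ctrl library. The fall of KLF7 did not pass the threshold without Ctrl replicate 1 (adjusted p = 0.062), Ctrl replicate 2 (0.0912), NE replicate 2 (0.131) or NE replicate 3 (0.118), all by limma, and its adjusted p ran from 0.00047 to 0.175 over the 19 alternatives. For KLF13 the same 4 libraries decided the call, with adjusted p of 0.106, 0.0792, 0.12 and 0.11 from limma in that order. With the replicate number as a block the adjusted p was 0.0886 for KLF7 and 0.0784 for KLF13. The GC correction moved the pair in opposite directions: KLF7, with 44.9% GC, went to -0.59 (adjusted p = 0.00207 from limma), and KLF13, with 57% GC, turned to 0.20 (adjusted p = 0.229), within a range of 0.0128 to 0.586 over its alternatives. KLF7 lies on chromosome 2 from 207074137 to 207173856, and KLF13 on chromosome 15 from 31326835 to 31435665.

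KLF10 (ENSG00000155090) and KLF11 (ENSG00000172059) are the TGF-beta inducible early genes, a pair of closely related repressors. KLF11 passed the test and KLF10 did not. KLF11 had 352, 392 and 434 normalised counts in Ctrl and 631, 506 and 579 in NE-treated cells, so that the groups did not overlap. The mean went from 393 ± 41.1 to 572 ± 63.2 (SD, n = 3 each), a log2 fold change of 0.54 (SE 0.139, limma adjusted p = 0.0102). KLF11 passed the threshold in all 19 alternatives, between 0.46 and 0.68, with adjusted p from 0.000583 to 0.0454, and stood at 0.64 after the GC correction. KLF10 had 1146, 1078 and 1592 normalised counts in Ctrl and 1033, 1014 and 1051 in NE-treated cells. The 3 NE values lay close together and below every Ctrl library, while Ctrl replicate 3 was far above the other Ctrl libraries. Its log2 fold change was -0.28 with a 95% confidence interval from -0.62 to 0.06 (adjusted p = 0.149 from limma), and -0.11 without Ctrl replicate 3 (adjusted p = 0.302, within 0.0893 to 0.486 over the alternatives). Corrected for GC, KLF10 was at -0.27 (adjusted p = 0.205). KLF11 lies on chromosome 2 from 10042849 to 10054836, and KLF10 on chromosome 8 from 102648784 to 102655725. The exons of KLF11 share 416 bases with a lncRNA gene on the opposite strand, whose mean was 0.807 normalised counts.

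KLF9 (ENSG00000119138), which glucocorticoids and thyroid hormone induce in many cells, rose with NE. Its normalised counts were 258, 302 and 343 in Ctrl and 429, 434 and 465 in NE-treated cells. The lowest NE library was above the highest Ctrl library, which was again replicate 3. The log2 fold change was 0.56 (SE 0.142, limma adjusted p = 0.00938), and 0.42 after the GC correction (adjusted p = 0.0362). Of the 19 alternatives 18 kept the adjusted p under 0.05, with values between 0.42 and 0.70. The exception was the GC correction with the replicate block, at 0.0568, the highest adjusted p in a range that began at 0.000313. KLF9 has 2 exons on chromosome 9, from 70384604 to 70414657.

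KLF3 (ENSG00000109787), the CtBP-dependent repressor, and KLF5 (ENSG00000102554), which promotes proliferation of epithelial cells, were higher with NE in the deposited values. KLF3 had 745, 752 and 1067 normalised counts in Ctrl and 1324, 1255 and 1296 in NE-treated cells, and the log2 fold change was 0.62 (SE 0.149, limma adjusted p = 0.0078). KLF5, the lowest of the 10 members by normalised count, had 169.6, 155 and 233 in Ctrl and 265, 278 and 256 in NE-treated cells, and the log2 fold change was 0.54 (SE 0.177, limma adjusted p = 0.0305). In both genes Ctrl replicate 3 lay between the other Ctrl libraries and the NE libraries. Both are poor in GC, with 41.8% for KLF3 and 44.6% for KLF5, and the correction took them to 0.15 (adjusted p = 0.326) and 0.27 (adjusted p = 0.228). Over the alternatives the adjusted p ran from 4.4e-06 to 0.425 for KLF3 and from 0.0005 to 0.287 for KLF5. With libraries left out in turn, KLF5 passed the threshold in 1 of 6 fits, the one without Ctrl replicate 3 (0.71, adjusted p = 0.0005). The others gave adjusted p of 0.0908 without Ctrl replicate 1, 0.117 without Ctrl replicate 2, 0.0806 without NE replicate 1, 0.1 without NE replicate 2 and 0.0679 without NE replicate 3. With the replicate block it was 0.0623. KLF3 lies on chromosome 4 from 38664197 to 38701517, where its exons share 265 bases with KLF3-AS1, an antisense gene with a mean of 4.14 normalised counts. KLF5 lies on chromosome 13 from 73054976 to 73077541.

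KLF4 (ENSG00000136826), one of the factors used to reprogram cells to pluripotency, had 1051, 978 and 633 normalised counts in Ctrl and 779, 775 and 770.3 in NE-treated cells. The NE libraries agreed closely and sat inside the Ctrl range, which Ctrl replicate 3 widened. The log2 fold change was -0.16 with a 95% confidence interval from -0.57 to 0.25 (adjusted p = 0.479 from limma). Without Ctrl replicate 3 it was -0.39 (adjusted p = 0.00208 from limma), and after the GC correction it was 0.36 (adjusted p = 0.0298), within a range of 0.00208 to 0.933 over the 19 alternatives. The direction of KLF4 thus turned with the processing, and its exons hold 58.4% GC. The gene lies on chromosome 9 from 107484852 to 107490482, and 357 exon bases are shared with a lncRNA gene on the opposite strand that was not analysed here.

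**Figure D2:**
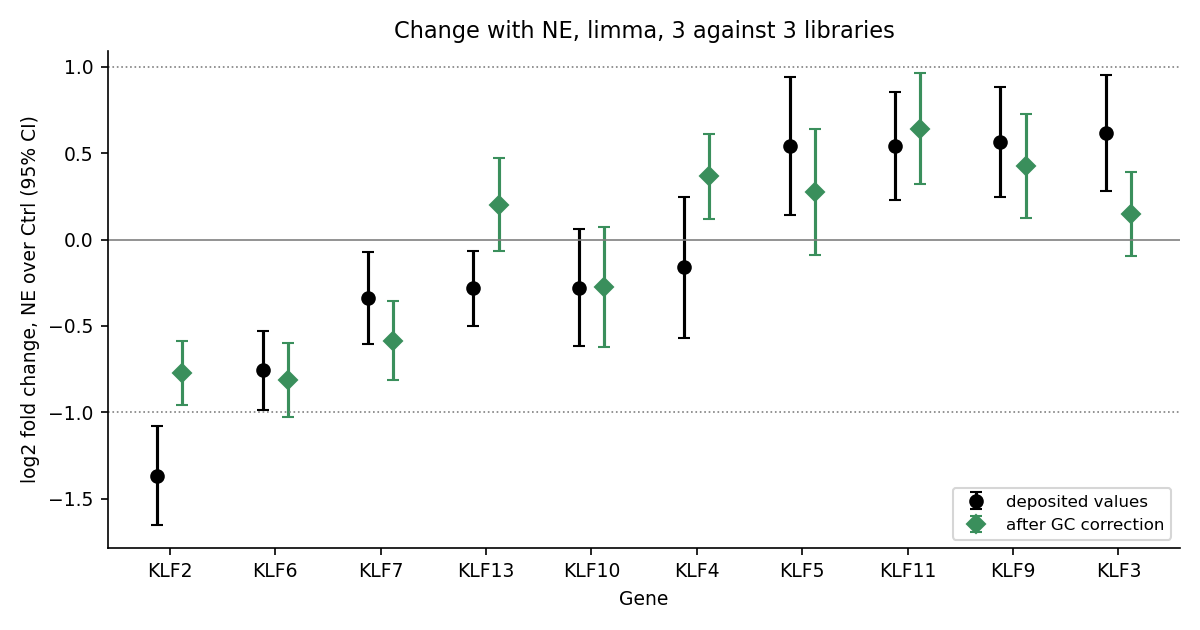
Log2 fold change of each KLF gene, NE over Ctrl, with 95% confidence intervals from limma, for the deposited values (black circles) and after the GC correction (green diamonds); dotted lines mark the fold criterion at -1 and 1. KLF6 and KLF11 stay in place, KLF2 moves from -1.37 to -0.77, and KLF4 and KLF13 change sign.

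The coefficient of variation was larger in Ctrl than in NE-treated cells for 6 members and smaller for 4. That of KLF4 was 25.2% in Ctrl and 0.539% in NE-treated cells, that of KLF5 was 22.5% and 4.18%, that of KLF10 was 22% and 1.78%, and that of KLF3 was 21.6% and 2.68%. Read counting alone gives 3.51%, 5.99%, 3.04% and 2.72% in NE-treated cells, in that order. The NE spreads of these genes were thus smaller than counting alone gives and do not show unusually even expression. In these genes Ctrl replicate 3 was far from the other Ctrl libraries. KLF6 had 5.49% and 6.66%, KLF7 7.02% and 7.43%, KLF11 10.5% and 11.1%, and KLF13 3.6% and 4.6%. Ctrl replicate 3 was shifted from the other Ctrl libraries towards the NE libraries in 6 of the 10 genes, KLF2, KLF3, KLF4, KLF5, KLF9 and KLF11, and away from them in KLF6, KLF7, KLF10 and KLF13. For KLF4 the shift was -0.68 on the log2 scale, beyond that of the NE libraries at -0.39.

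**Figure D3:**
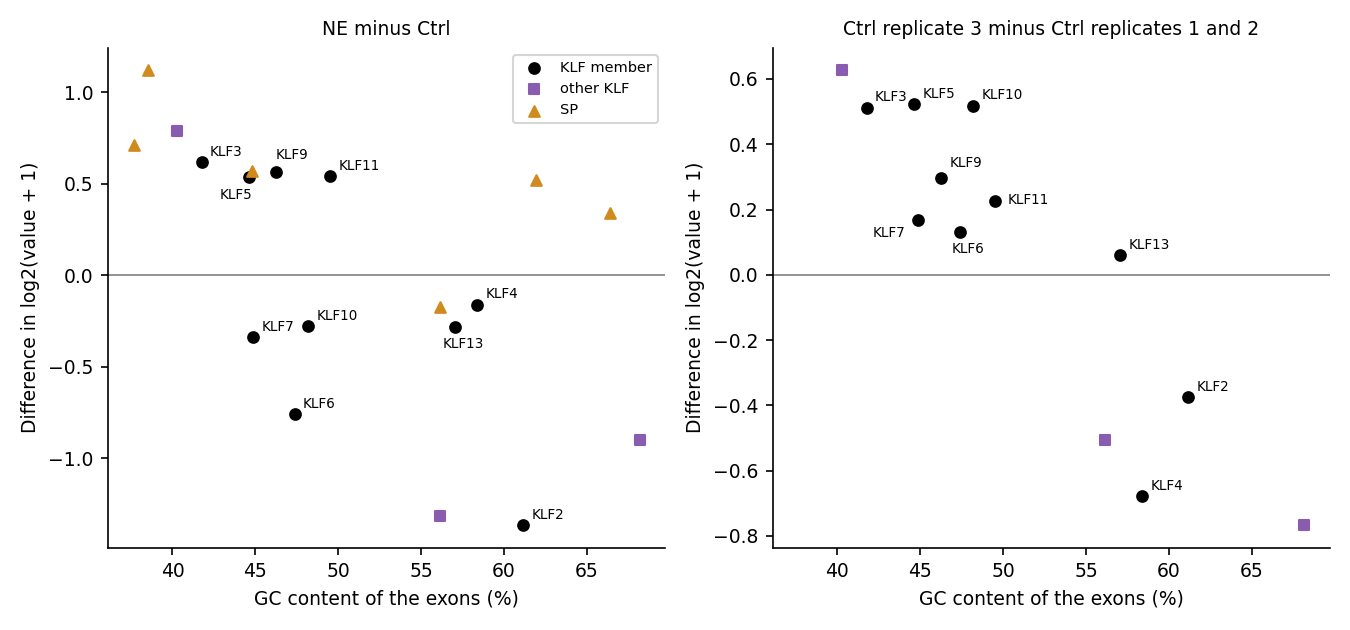
Difference in log2(value + 1) against the GC content of the exons in percent, for NE minus Ctrl (left) and for Ctrl replicate 3 minus the mean of Ctrl replicates 1 and 2 (right), with KLF members as black circles, other KLF genes as squares and SP genes (left only) as triangles. In the right panel KLF2 and KLF4, at 61.2% and 58.4% GC, lie below 0 and the other 8 members lie above it.

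Across the 10 members the log2 fold change and the GC content had a Spearman correlation of -0.503, and the shift of Ctrl replicate 3 had one of -0.758. After the GC correction the first was 0.00606, a value near 0 that the correction largely fixes by taking out the GC trend. These describe 10 genes measured in the same 6 libraries. How much of each KLF change follows the GC trend and how much follows NE cannot be told apart, since the trend also separates the groups.

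Levels were compared between genes as FPKM, recomputed from the recovered reads and the merged exon length. KLF2 was the highest in both groups, with 64.9 ± 8.16 FPKM (SD, n = 3) in Ctrl and 27.6 ± 2.88 in NE-treated cells. KLF6 followed with 27 ± 2 and 17.5 ± 0.706, and KLF10 with 18.5 ± 4.46 and 16.5 ± 0.875, and in NE-treated cells KLF6 and KLF10 overlapped. KLF13 and KLF4 came next and overlapped each other in both groups, between 12.9 and 14.3 on average. KLF3 rose from 7.03 ± 1.66 to 11.6 ± 0.448 FPKM, KLF11 from 4.75 ± 0.58 to 7.6 ± 0.739 and KLF9 from 3.22 ± 0.511 to 5.2 ± 0.442, which kept KLF3 and KLF11 at the sixth and seventh place. In Ctrl, KLF11 overlapped KLF7 and KLF9 overlapped KLF5. Of the 10 members KLF5 was the lowest in Ctrl, at 2.81 ± 0.69, and KLF7 the lowest in NE-treated cells, at 3.87 ± 0.137.

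**Figure D4:**
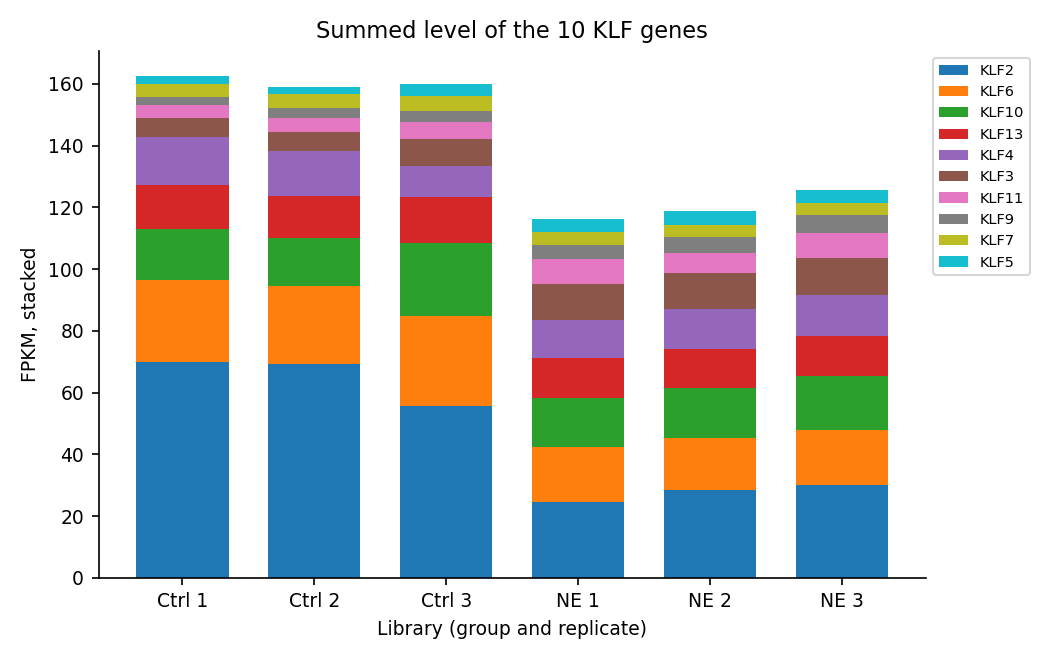
FPKM of the 10 KLF genes stacked in each library, from 0. The Ctrl bars reach 158.9 to 163 and the NE bars 116 to 126, and the KLF2 part at the base is the one that shrinks most.

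Summed over the 10 genes, the level was 163, 158.9 and 159.9 FPKM in the Ctrl libraries and 116, 119 and 126 in the NE libraries. The mean went from 160.5 ± 1.93 to 120.2 ± 4.91 (SD, n = 3 each), with no overlap (two-sided p = 0.1 by exact permutation, as small as 3 against 3 can give). Without KLF2 the sum was 95.5 ± 7.75 in Ctrl and 92.6 ± 2.72 in NE-treated cells, and the groups overlapped (exact permutation test, p = 0.7). FPKM divides by the total reads of a library, while the fold changes above rest on size factors. Scaling by total reads moved the median log2 fold change of all genes to 0.15. The sums were not tested with the size factors, so the overlap holds for this scaling only. KLF2 made up 43.1%, 43.6% and 34.7% of the sum in Ctrl and 21.1%, 23.9% and 23.9% in NE-treated cells. KLF3 went from 4.38% ± 1.05 to 9.69% ± 0.138, KLF9 from 2.01% ± 0.334 to 4.32% ± 0.189 and KLF11 from 2.96% ± 0.384 to 6.32% ± 0.621 of the sum (SD, n = 3 each). Such shares depend on one another, so the fall of KLF2 raises the rest.

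Ratios between related members within a library do not depend on how libraries are scaled, but they still carry the GC trend where the genes differ in GC content. Of 5 ratios compared, 4 had no overlap between groups (exact permutation test, two-sided, p = 0.1 each, 0.125 after Benjamini-Hochberg adjustment over the 5). Among single genes tested, 29.7% had every NE library above every Ctrl library and 28.9% every one below. The share over pairs of other genes was not computed, so whether the count is particular to KLF pairs was not tested. The log2 ratio of KLF2 to KLF4 was 1.77, 1.86 and 2.12 in Ctrl and 0.60, 0.76 and 0.79 in NE-treated cells, and it was highest in Ctrl replicate 3, where KLF4 was reduced more than KLF2. The ratio of KLF10 to KLF11 fell from 1.68 ± 0.208 to 0.86 ± 0.147 on the log2 scale (SD, n = 3 each). That of KLF6 to KLF7 went from 1.95 ± 0.0512 to 1.53 ± 0.0343, and that of KLF9 to KLF13 from -3.01 ± 0.205 to -2.17 ± 0.125. The ratio of KLF4 to KLF5 was 2.62 and 2.65 in Ctrl replicates 1 and 2, but 1.44 in Ctrl replicate 3, under all NE libraries, which held 1.48 to 1.59 (exact permutation test, p = 0.4). Without Ctrl replicate 3 its difference between the groups was -1.10, against -0.70 with it. After the GC correction, an alternative added after seeing the data, the ratio of KLF2 to KLF4 still differed by -1.14 and that of KLF10 to KLF11 by -0.91, with no overlap. The difference for KLF6 to KLF7 was -0.23, also with no overlap, against -0.42 before. That for KLF9 to KLF13 went from 0.85 to 0.22 with overlapping groups (exact permutation test, p = 0.2), and that for KLF4 to KLF5 turned to 0.09 (exact permutation test, p = 1).

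Of 8 other KLF genes, 7 were in the table and 3 were tested. KLF14, an imprinted gene that is active from the maternal copy, had 57.6, 51.8 and 38.2 normalised counts in Ctrl and 26.7, 18.4 and 13.7 in NE-treated cells, and limma gave a log2 fold change of -1.31 (adjusted p = 0.0108), and -0.86 after the GC correction (adjusted p = 0.0726). KLF16 fell from 1255 ± 351 to 656 ± 81.9 (SD, n = 3 each; log2 fold change -0.90, adjusted p = 0.00629 from limma), and KLF12 was higher, at 212 ± 57.4 and 361 ± 48.5 (0.79, adjusted p = 0.0103 from limma). After the GC correction the fold changes of KLF16 and KLF12 were -0.25 (adjusted p = 0.119) and 0.23 (adjusted p = 0.273), and KLF12 had an adjusted p of 0.0521 without NE replicate 1. KLF8 was not analysed here. KLF1, KLF15, KLF17 and KLF18 had at most 4 reads in any library and were not tested.

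The SP factors bind the same GC boxes, and 6 of the 9 were tested. SP1, the ubiquitous member, had 2214, 2275 and 2255 normalised counts in Ctrl and 3830.06, 3186 and 3043 in NE-treated cells, and the log2 fold change was 0.57 (SE 0.111, limma adjusted p = 0.00279). After the GC correction SP1 was at 0.32 (adjusted p = 0.0326). SP3 and SP4 were also higher, at 0.71 and 1.12 (adjusted p = 0.00232 and 0.00663 from limma), and both were not past the threshold after the GC correction, at 0.04 (adjusted p = 0.749) and 0.48 (adjusted p = 0.112). Of the 6 SP genes 3 were higher and 0 lower at an adjusted p under 0.05, beside 24.6% and 25.5% of all genes. After the GC correction they were 2 and 0, beside 13.0% and 19.0%. Their median log2 fold change was 0.54, beside 0.01 over all genes tested, and 0.40 after the GC correction. It takes in SP genes not named here, with log2 fold changes from -0.18 to 0.52. In those genes Ctrl replicate 3 was shifted from the other Ctrl libraries by -3.07 to 1.12 on the log2 scale.

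Among 15 tested coactivators and corepressors of these factors, 5 were higher and 6 lower at an adjusted p under 0.05, with a median log2 fold change of 0.11, beside 24.6% and 25.5% of all genes. With the GC trend removed they were 3 and 3, beside 13.0% and 19.0% of all genes, with a median of 0.02. FHL3, a LIM-domain cofactor that binds KLF3, fell from 438 ± 40 to 157 ± 13.3 normalised counts (SD, n = 3 each; log2 fold change -1.47, adjusted p = 0.000124 from limma), and the correction for GC left -0.91 (adjusted p = 0.00354), short of the fold criterion. SIN3A, the corepressor scaffold, rose from 1376 ± 57.5 to 2311 ± 256 (0.74, adjusted p = 0.000787, and 0.45 after the GC correction), and WDR5 had a log2 fold change of -0.72 (adjusted p = 0.000626), or -0.22 after the GC correction (adjusted p = 0.0868). Of 9 ubiquitin ligases that act on KLF proteins, 4 were higher and 2 lower, beside 24.6% and 25.5% of all genes. Their median log2 fold change was 0.11. After the GC correction 1 was higher and 1 lower, beside 13.0% and 19.0% of all genes. SMURF2 was at -0.62 and BTRC at 0.71 on the log2 scale (adjusted p = 0.000892 and 0.00287 from limma). SMURF2 after the GC correction was at -1.14, past the fold criterion, and BTRC at 0.52. ITCH was at 0.68 (adjusted p = 0.00207), and at 0.15 after the GC correction (adjusted p = 0.197).

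Of 12 upstream kinases and transcription factors, 4 were higher and 4 lower, beside 24.6% and 25.5% of all genes, with a median log2 fold change of 0.03. Corrected for GC, 2 were higher and 2 lower, beside 13.0% and 19.0% of all genes. NR3C1, the glucocorticoid receptor gene, had 992, 973 and 1120.1 normalised counts in Ctrl and 2480.2, 2207 and 2020.4 in NE-treated cells, and limma gave a log2 fold change of 1.12 (adjusted p = 0.000173), and 0.73 after the GC correction. KRIT1 and CCM2, proteins of the cerebral cavernous malformation complex, which restrains KLF2 and KLF4 expression in endothelium, went opposite ways. The first was at 1.02 (adjusted p = 0.00157 from limma) and at 0.29 after the GC correction (adjusted p = 0.189), and the second at -0.91 (adjusted p = 0.000173) and at -0.51 after it (adjusted p = 0.00433).

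Of 28 tested genes reported elsewhere as KLF targets, 3 were higher and 15 lower at an adjusted p under 0.05, beside 24.6% and 25.5% of all genes. With the fold criterion 1 was higher and 5 were lower, beside 7.47% and 6.55%, and the median log2 fold change was -0.48. Corrected for GC, 2 were higher and 10 lower, beside 13.0% and 19.0% of all genes, and the median was -0.18. PLAU, the urokinase gene and a KLF6 target, had a log2 fold change of -1.76 and CCND1, the cyclin D1 gene, one of -1.30, and both kept an adjusted p under 0.05 after the GC correction. ENG, the endoglin gene, was at -1.01 (adjusted p = 0.00303 from limma) and at -0.41 after the GC correction (adjusted p = 0.174). IGF1R, the receptor of insulin-like growth factor 1 and a gene that KLF6 is reported to activate, rose by 1.42 (adjusted p = 6.01e-05 from limma).

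**Figure D5:**
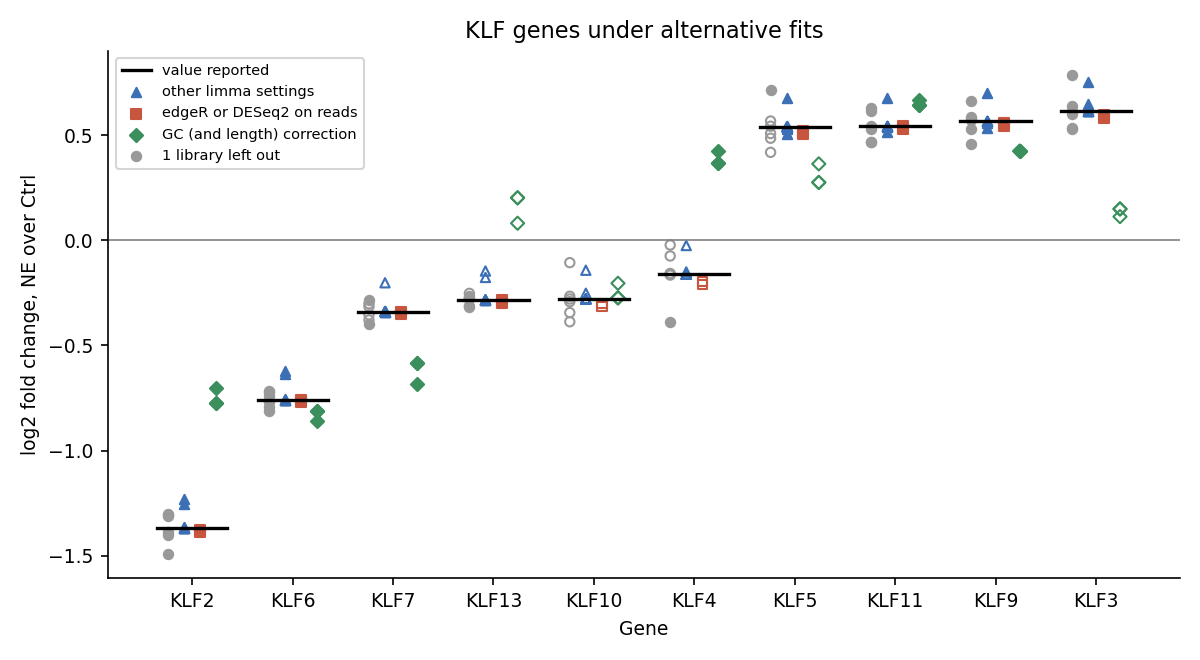
Log2 fold change of each KLF gene in the fit reported (black line) and in 19 alternative fits, with 1 library left out (grey), other limma settings (blue), edgeR or DESeq2 on the reads (red) and corrections for GC content or for GC content and length (green); filled symbols have an adjusted p under 0.05. KLF2, KLF6 and KLF11 are filled throughout, and KLF10 is open throughout.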

How the data were processed

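RNA-seq of NCI-H1299 cells was used, with 3 Ctrl and 3 NE libraries grouped by sample title; columns were matched by group letter and replicate number. The authors aligned reads to hg38 with HISAT2 2.0.5 and counted them per gene with featureCounts 1.5.0-p3; the annotation is not given in the sources used here. Their methods describe FPKM, while the signal they deposited turned out to be normalised counts: reads per gene over a library size factor of 0.955 to 1.09. All values (100% in each library) were whole reads within 0.01 reads. Groups were compared with limma 3.58.1 with trend, all 6 libraries in 1 fit, on log2(value + 1), over 15013 genes with a mean of at least 10, called at an adjusted p under 0.05, with or without a log2 change of 1 or more either way. Fold changes on this scale understate low genes.

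Exon length and GC content came from GENCODE v44 on hg38 for 25813 of 26025 genes. The GC correction subtracted, library by library, a natural spline of exon GC content (5 df). FPKM was recomputed from recovered reads and scaled by the total reads of each library. Alternatives were other pseudocounts, filters and scalings, eBayes without trend, a replicate block, each library left out, GC and length corrections, and tests on recovered reads by edgeR 4.0.16 and by DESeq2 1.42.0. The limma fit (also with the block and quantile normalisation) and the edgeR fit were tested on simulated data. The members and gene lists were chosen with earlier results of these data known. Named genes were the 10 members, the line markers and, from each list, the genes called with the fold criterion, filled up to 3 by smallest adjusted p where fewer were called; some genes that this rule names are not reported here.

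Replicate numbers are not stated to mark a shared culture or day, so they were not taken as pairs. Deviations from the group means correlated at -0.163, 0.0799 and -0.151 between libraries with the same replicate number.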

Additional observations from a re-analysis of the deposited data

How the results depend on the processing

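KLF2, KLF6 and KLF11 kept their direction and an adjusted p under 0.05 in all 19 alternatives, and KLF9 in 18. The GC correction gave 513 genes higher and 398 lower with the fold criterion, against 1121 and 983; with length added it gave 502 and 347, and with the replicate block 438 and 360. In these 3 fits 0 members met the fold criterion (limma), since KLF2 was between -0.77 and -0.70, and 6 members, 6 members and 4 members respectively had an adjusted p under 0.05. With the GC correction alone 13.0% of all genes were higher and 19.0% lower by the adjusted p. For the fits with length or the block added, that share is not given. In the same 3 fits KLF4 turned to 0.36, 0.42 and 0.36 and KLF13 to 0.20, 0.081 and 0.20. The median of the ubiquitin ligases turned to -0.13, -0.16 and -0.13 and that of the upstream factors to -0.033, -0.0052 and -0.033. SP3 turned to -0.074 with length added, and the ratio of KLF4 to KLF5 turned to 0.090 with the GC correction. For these changes the cause was not tested.

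Scaling by total reads moved the median of all genes to 0.15 on the log2 scale and gave 1656 genes higher and 599 lower. The members that fell with an adjusted p under 0.05 were 2 with that scaling, with no filter, with eBayes without trend and with the replicate block. With the block and the GC correction 1 member rose. The replicate block gave 1049 genes higher and 924 lower with the fold criterion. By the adjusted p alone it gave 3150 higher and 3358 lower, against 3693 and 3828 in the reported fit. For the other fits of this paragraph the counts of all genes by the adjusted p alone are not given. The correlations of libraries sharing a number were low, but with 3 libraries in a group they can show little about pairing.

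With 1 library left out, 815 to 1628 genes were higher and 777 to 1507 lower, the most without Ctrl replicate 3. Members that fell with an adjusted p under 0.05 numbered 2 to 5. The most fell without Ctrl replicate 3, where 32.5% of all genes were lower. The median of the upstream factors ran from -0.020 to 0.035, at -0.020 without Ctrl replicate 2 and -0.011 without Ctrl replicate 3.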
